A study of Rattus norvegicus with 156 samples.

Results

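Astrocytes in the brain and spinal cord, and the satellite glial cells that wrap each sensory neuron body in a dorsal root ganglion, share a set of genes for taking up glutamate, clearing potassium and passing small molecules between cells. The genes described here are 10 such markers: Gfap, Aldoc, Fabp7, Ntsr2, Slc1a2, Slc1a3, Glul, S100b, Gja1 and Aqp4. They were followed in rats with and without a tie around the spinal nerves of L5 and L6, an operation used to model neuropathic pain. Every probe set matched to one of these symbols was taken. This gave 26 of the 26202 probe sets that are not controls, for 9 of the 10 genes. In all, 10969 distinct gene symbols were matched. Gfap, an intermediate filament protein used as the standard marker of reactive astrocytes and satellite glia, had no probe set matched to it here and is not described. Annotation lines were read only up to any # sign, so a probe set with that sign in its name got no symbol. Whether such a probe set targets Gfap was not checked.

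RNA was hybridised to Affymetrix rat U34 arrays, of which sets A, B and C hold different probe sets, and 52 RNA pools were each run on all 3. A pool held tissue of 4 to 6 rats of 1 treatment and 1 tissue, and each treatment was arrayed as 1 pool per tissue. The treatments were Naive (no surgery, saline vehicle), Naive+GPN (no surgery, gabapentin), Sham (spinal nerves exposed and not tied, vehicle), SNL (L5 and L6 spinal nerves tied, vehicle) and SNL+GPN (the same nerves tied, gabapentin). Gabapentin, a drug used against neuropathic pain, was injected into the peritoneum at 100 mg/kg daily for 7 days, and tissue was taken 19 to 21 days after surgery. The first 3 treatments are called unligated and the other two ligated. Rats entered the ligated groups only where withdrawal of the ipsilateral paw occurred at a lower threshold, so both ligated groups were selected on that behaviour. There were 28 ganglion pools (L4, L5 and L6, both sides), 9 pools of sciatic nerve from mid thigh, 10 of hemisected spinal cord and 5 of whole brain. L5 and L6 ganglia send their axons through the tied nerves, and the L4 ganglion does not. Strain, sex and age were not given in the sources used here, nor whether the same rats gave every tissue.

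Nefh and Mobp separated the tissues named below, and Prx did not separate cord from ganglia. Nefh, a heavy neurofilament protein of large neurons, had a signal of 2860 to 3715 in 16 unligated ganglion pools and of 1.54 to 21.5 in 6 nerve pools. Mobp, a myelin protein of oligodendrocytes, had a signal of 946 to 1075 in 6 unligated cord pools and of 30 to 52.3 in the unligated ganglia. Prx was highest in unligated nerve (2921 to 4246) and overlapped between unligated cord (739 to 1004) and ganglia (921 to 1670). In unligated brain it was 8.54 to 33.3, and the source of the cord signal was not tested. Of the ganglion libraries, 2 stood apart. In the SNL pool of the contralateral L6 ganglion, Aqp4 had a signal of 103, while the other 27 ganglion pools lay between 0.513 and 6.66. The second Aqp4 probe set gave 22.8 there against at most 11 in the other ganglia. Some other genes with high signals in cord were also raised in this pool. Mobp reached 103 against at most 64.8 in the other ganglia, Psd2 reached 58 against at most 18.5, and Ntsr2 reached 86.4 against at most 55.9. Not all genes with high signals in cord exceeded the other ganglia. Glul was 357, Cldn11 113 and Gja1 155 in this pool, and the other ganglia reached 509, 153 and 193. Medians of the other ganglia were 388, 38 and 71.8. The Gja1 value of 193 was the ipsilateral L6 SNL pool, and unligated ganglia reached 93.8. Of the other Gja1 probe sets, 1 gave 32.4 in this pool against at most 23.3, and 1 gave 19.8 against at most 34.9. Of the tests below, the pool enters the contralateral L6 comparison. The other is the Sham pool of the contralateral L4 ganglion, in which the ratio of 3′ to 5′ GAPDH control signals, a measure of RNA degradation, was 3.16 while the other 27 ganglion pools reached at most 1.49. Fabp7 was 127 there, its highest ganglion signal. This pool enters the ganglion means, the contralateral L4 comparison and the test of gabapentin in ganglia. Without the Sham treatment all 8 calls against cord and all 6 against brain held, and Fabp7 passed against brain as well (-0.64, adjusted p = 0.0440).

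The 9 measured genes fall into groups by what their proteins do. Slc1a2 (GLT-1) and Slc1a3 (GLAST) are the glial glutamate transporters, and Glul is glutamine synthetase, which turns the glutamate taken up into glutamine. Aldoc is a glycolytic aldolase, and Fabp7 is a brain fatty acid-binding protein of radial glia, astrocytes and satellite glia. Gja1 is connexin 43, the gap junction protein that couples these glia. Aqp4 is the water channel of astrocyte endfeet. S100b is a calcium-binding protein of astrocytes, satellite glia and Schwann cells. Ntsr2 is a neurotensin receptor found on astrocytes.

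In rats without ligation, 8 of the 9 measured genes were lower in dorsal root ganglia than in spinal cord. The smallest of these differences was in S100b (1.80-fold), followed by Aldoc (3.05-fold) and Fabp7 (3.33-fold). The glutamate transporter Slc1a3, glutamine synthetase, connexin 43 and the neurotensin receptor Ntsr2 differed by 4.33-fold to 9.29-fold. The water channel Aqp4 was bright in cord and low on its array in nearly every ganglion pool, so its fold is not fixed, and the transporter Slc1a2 did not pass. Signals below are linear probe set values after quantile normalization, and each gene is shown by its brightest probe set, so levels are compared within a gene only.

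Slc1a3 signals ranged from 29 to 51.1 (median 38.2) in the 16 unligated ganglion pools, from 139 to 230 (median 199) in the 6 unligated cord pools, and were 696, 890 and 747 in the Naive, Naive+GPN and Sham brain. Every ganglion pool lay below every cord pool, and every cord pool below every brain pool. Tests between tissues used limma on 1 mean per treatment and tissue, 3 against 3, on log2 of signal plus a pseudocount of 5.9 (set A), 4.6 (set B) or 6.2 (set C), which makes folds of weak genes too small. Adjustment of p-values was by Benjamini-Hochberg, across every probe set tested. Slc1a3 was lower by 2.11 ± 0.133 (SE) on the log2 scale in ganglia than in cord (adjusted p = 6.41e-08) and by 4.11 ± 0.133 than in brain (adjusted p = 5.19e-11).

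Glul ranged from 213 to 470.5 (median 372) in unligated ganglia and from 1386 to 1882 (median 1740) in unligated cord. The brain pools gave 981, 1639 and 1467. All ganglion pools again lay below all cord and brain pools. The log2 difference from cord was -2.24 ± 0.169 (adjusted p = 3.67e-07), and the other 4 Glul probe sets gave -2.39 to -1.24, all past the threshold of 0.05.

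Slc1a2 was the member for which the arrays gave no clear tissue difference. Its brightest probe set ranged from 14.7 to 48.3 in unligated ganglia and from 23.6 to 68.9 in unligated cord, and these ranges overlapped. Its log2 difference was -0.24 (95% interval -1.02 to 0.55, adjusted p = 0.701). A second Slc1a2 probe set was brighter than the 40th percentile of its array in 10 of 10 cord and 5 of 5 brain pools and in 0 of 28 ganglion pools. It entered the test through cord and brain alone, so no size or test is read from it. The 2 remaining probe sets passed that level in 0 and 1 of 52 pools.

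Aqp4 ranged from 0.758 to 6.66 (median 2.09) in unligated ganglia, while cord pools lay between 1150 and 1448 and the 3 brain pools at 533, 623 and 583. Its ganglion signal was under the 40th percentile of its array in 27 of 28 pools. It passed the filter on low signals through cord and brain alone, and the size of the difference depends on the pseudocount: the log2 difference was -7.23 as fitted and -5.28 with a pseudocount of 32. Gja1 ranged from 49 to 93.8 (median 65.9) in unligated ganglia and from 619 to 752 (median 664) in unligated cord, without overlap. Its log2 difference was -3.21 ± 0.231 (adjusted p = 2.21e-07). Both proteins are channels of astrocytes. The other 3 probe sets of these genes were fitted lower in ganglia as well (-4.99 to -1.92). The second Aqp4 probe set lay above the 40th percentile of its array in 1 of 28 ganglion pools. The other 2 Gja1 probe sets did so in 2 and 14 of 28. No size is read from the Aqp4 one or from the Gja1 one with 2 such pools.

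Ntsr2 ranged from 34.3 to 55.9 (median 48.1) in unligated ganglia and from 397 to 542 (median 498) in unligated cord. The groups were far apart, with a log2 difference of -3.21 ± 0.118 (adjusted p = 3.34e-10). Aldoc signals in unligated ganglia (802 to 1208, median 996) lay below those in cord (2689 to 3372, median 3107), and the log2 difference was -1.61 ± 0.123 (adjusted p = 3.99e-07). The 2 other Aldoc probe sets gave -1.70 and -1.52.

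Fabp7 ranged from 27.9 to 127 (median 63.6) in unligated ganglia and from 174 to 268 (median 202) in unligated cord. Its pools varied more within the ganglia than those of Aldoc or Ntsr2, but did not reach the cord. The log2 difference was -1.74 ± 0.224 (adjusted p = 5.22e-05). S100b ranged from 1094 to 2377 (median 1934) in unligated ganglia and from 3152 to 3829 (median 3323) in unligated cord, with a log2 difference of -0.85 ± 0.150 (adjusted p = 0.000771). A weaker S100b probe set did not pass (-0.16, adjusted p = 0.725).

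**Figure D1:**
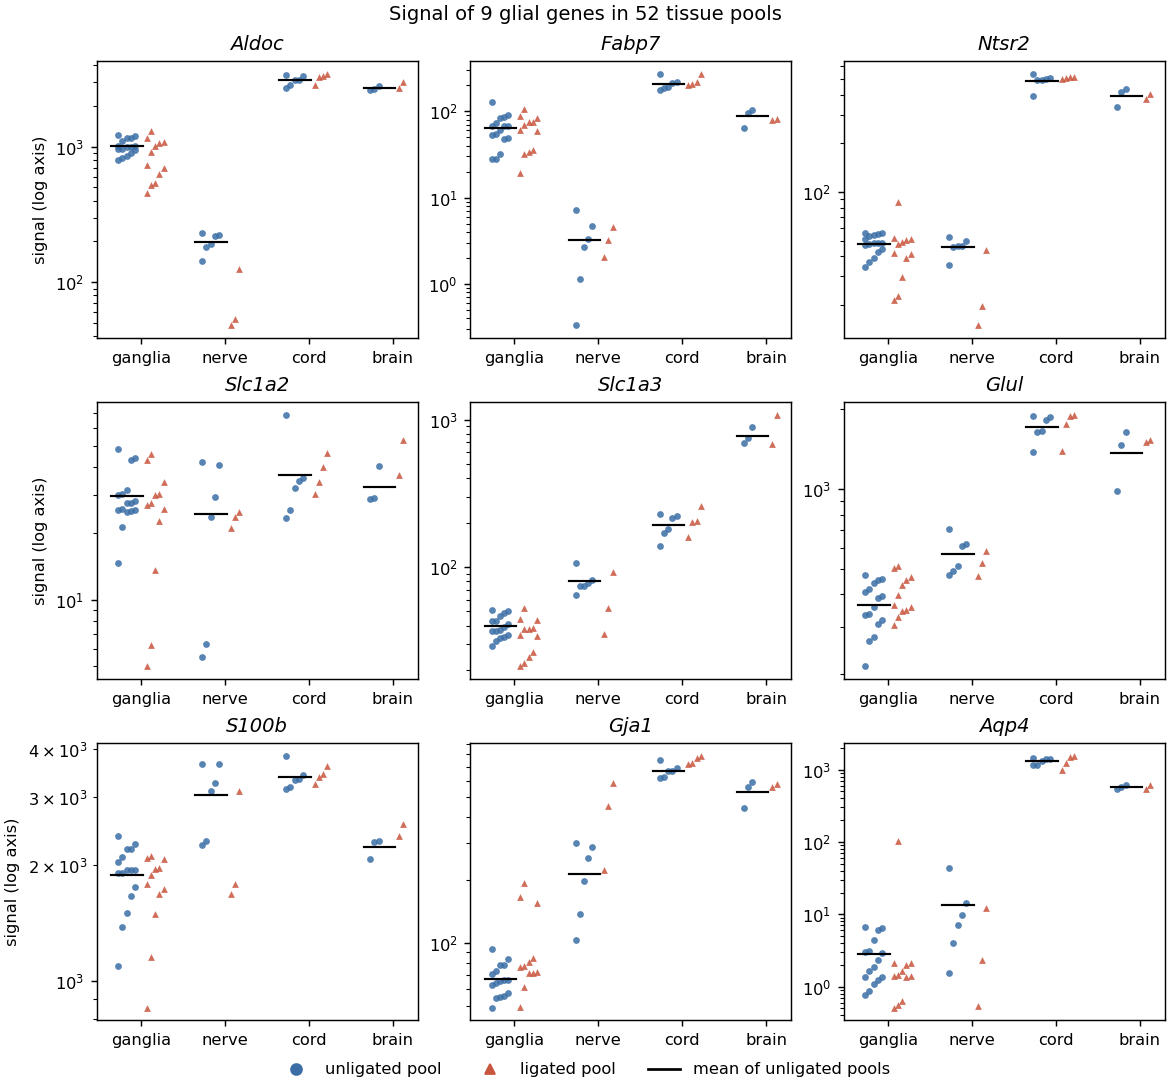
Signal of each of the 9 measured genes (log axis) in all 52 pools, by tissue. Circles are unligated pools, triangles are ligated pools and bars are means of the unligated pools; Aqp4 lies at 0.513 to 6.66 in 27 ganglion pools and at 977 to 1551 in cord, while Slc1a2 overlaps across tissues.

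Counted over genes, 8 of 9 were lower in ganglia than in cord and 0 of 9 higher, with a median log2 difference of -2.11. Over all probe sets tested, 13.0% were lower and 14.0% higher. Of the members' probe sets, 23 of 26 passed the filter on low signals, and 21 of these were lower, the same number as at an unadjusted p under 0.05. A probe set could pass that filter through the tissue where it is high, as Aqp4 did, so the count describes the tested probe sets and not all 26. Against brain, 6 of 9 genes were lower and 0 higher, beside 17.9% lower and 18.5% higher over all probe sets. The members not past the threshold there were Fabp7 (-0.53, 95% interval -1.01 to -0.04, adjusted p = 0.0832), S100b (-0.25, -0.57 to 0.07, adjusted p = 0.223) and Slc1a2 (-0.15, -0.93 to 0.63, adjusted p = 0.789). The S100b difference had the opposite sign in 1 or more of its 11 alternatives, reaching 0.20.

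Brain and cord differed from each other in 4 of the 9 genes, which the tests placed in both directions. Slc1a3 was higher in brain by 1.99 ± 0.133 (adjusted p = 2.02e-07), a 3.98-fold difference, and 3 other Slc1a3 probe sets were fitted higher too (0.87 to 1.86). These 3 lay above the 40th percentile of their arrays in 5 of 5 brain pools and in 3, 7 and 10 of 10 cord pools. No size is read from the 2 that were low in some cord pools. Fabp7 (-1.21 ± 0.224, adjusted p = 0.00143), Aqp4 (-1.18 ± 0.246, adjusted p = 0.00358) and S100b (-0.60 ± 0.150, adjusted p = 0.0115) were lower in brain. Over all probe sets, 9.92% were higher and 10.5% lower in brain. Without the Naive+GPN pools 2 of the 4 remained past the threshold, since S100b and Aqp4 missed it (adjusted p up to 0.0996 and 0.0612); S100b missed it without the Naive pools too.

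The sciatic nerve, which holds Schwann cells and axons and lacks neuron bodies and satellite glia, differed from the ganglia in opposite ways for different members. Aldoc and Fabp7 were much lower in nerve. Gja1, Slc1a3, S100b and Glul were higher there, though the Slc1a3 and Glul calls depended on the scaling. Aldoc gave 143 to 229 (median 205) in the 6 unligated nerve pools, far under the lowest unligated ganglion pool, and its log2 difference was -2.32 ± 0.123 (adjusted p = 3.54e-09). Fabp7 gave 0.334 to 7.11 (median 3.01), below the 40th percentile of its array in all 9 nerve pools. Fabp7 entered this test through the other tissues, and its fitted difference, -2.84, was -1.37 with a pseudocount of 32.

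Gja1 gave 104 to 301 (median 226) in unligated nerve, above every unligated ganglion pool. It was higher in nerve by 1.51 ± 0.231 (adjusted p = 0.000105), although the other 2 Gja1 probe sets gave -0.26 and 0.53 and did not pass. Slc1a3 was higher by 0.91 ± 0.133 (adjusted p = 7.24e-05), S100b by 0.67 ± 0.150 (adjusted p = 0.00209) and Glul by 0.65 ± 0.169 (adjusted p = 0.00611). The other Slc1a3 probe sets lay above the 40th percentile of their arrays in 0 of 9 nerve and at most 6 of 28 ganglion pools. The weaker S100b probe set did so in 3 of 9 nerve and 15 of 28 ganglion pools. Aqp4 signals in unligated nerve were 1.56 to 43.2, and they lay above the 40th percentile of the array in 1 of all 9 nerve pools, Naive contralateral, as they did in 1 of 28 ganglion pools, so no difference is read from its call. Ntsr2 did not pass, at -0.05 (95% interval -0.30 to 0.21, adjusted p = 0.781), but was lower in nerve at the deposited scaling (-0.66, adjusted p = 0.00389).

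Of 9 genes, 5 were higher and 2 lower in nerve than in ganglia, beside 25.1% and 22.8% of all probe sets. These include Aqp4 and Fabp7, whose signals lay low on their arrays in 1 or both tissues. At the deposited scaling the median of all probe sets moved by -0.50 and the Slc1a3 and Glul calls were lost (0.38, adjusted p = 0.107, for Slc1a3; 0.26, adjusted p = 0.321, for Glul). Ntsr2 and Slc1a2 (-0.94, adjusted p = 0.0153) then passed as lower, which turned 5 higher and 2 lower into 3 higher and 4 lower. The Glul call was also lost without Naive+GPN (adjusted p = 0.0656) and with ipsilateral L5, nerve and cord alone. Nerve pools held skeletal muscle markers at a summed signal of 6901 to 34205 over 13 genes, against 374 to 6416 in unligated ganglia. The ratio of 3′ to 5′ GAPDH control signals, which rises as RNA degrades, was 1.60 to 7.38 in unligated nerve and 1.13 to 3.16 in unligated ganglia. The part of either in these differences was not tested.

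**Figure D2:**
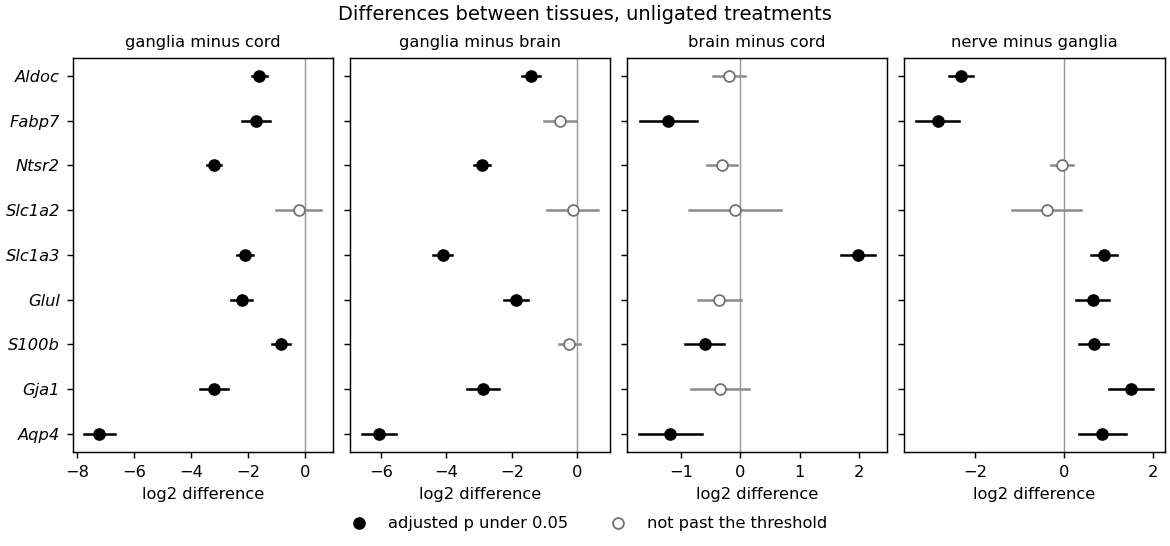
Log2 differences between tissues for the 9 measured genes, with 95% intervals, from 3 treatment means per tissue. Filled points passed an adjusted p of 0.05. All 9 genes lie left of 0 against cord and against brain, 8 and 6 of them filled, and Slc1a3 alone lies right of 0 among the 4 filled brain minus cord points; the Aqp4 points in 3 panels and the Fabp7 point for nerve are set against signals low on their arrays.

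The order of the 11 tissue and side combinations in unligated rats is given here by mean signal, without a test between ganglia. For Aldoc the cord sides (means 3101 and 3056) and brain (2687) came first with overlapping ranges, then the 6 ganglia at 816 to 1110, then the nerves at 211 and 186. Among the ganglia, ipsilateral L5 (991 to 1007), ipsilateral L6 (849.8 to 957) and contralateral L6 (802 to 831) did not overlap, though each rested on 2 or 3 pools. Contralateral L4 (943 to 1208) and ipsilateral L4 (957 to 1157) reached the ranges of both ipsilateral L5 and ipsilateral L6. Fabp7 had ganglion means of 40 to 82.4, with neighbours overlapping throughout, and the L4 contralateral ganglion overlapped brain. Ntsr2 had means of 41.3 to 52.8 across the 8 ganglion and nerve combinations, each overlapping its neighbour.

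For Slc1a3 the order was brain (778), cord (202 and 184), nerve (86.9 and 72.4) and ganglia (33.6 to 45.7), and each of these 4 tissues was separate from the next. Glul followed cord, brain, nerve and ganglia (286 to 430), with cord and brain overlapping. Gja1 ran from cord (693 and 645) through brain (529.6) and nerve (231 and 197) to ganglia (58.7 to 75.4). S100b ran from cord (3476 and 3266) through nerve (3202 and 2873), brain (2222) and ganglia (1377 to 2124), with every neighbouring pair overlapping. Slc1a2 had means of 23.6 to 46.2 with every neighbouring pair overlapping.

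With ligation, 3 glial genes fell in the ipsilateral L5 ganglion, whose axons were tied. Aldoc, Fabp7 and Ntsr2 each fell to about 50% of the unligated level, in the SNL and SNL+GPN pools alike. Gja1 was highest in the SNL pool but did not pass the test, and the glutamate genes Slc1a3, Slc1a2 and Glul did not pass either. Each fit compared 2 ligated with 3 unligated pools in 1 ganglion. In these bulk samples fewer cells of a type and less RNA per cell cannot be told apart. Since the 3 genes moved together, the 250 bases before their start sites are shown, from RefSeq on build GRCr8, 5′ to 3′ on the plus strand, with motif matches in capitals. The Aldoc and Ntsr2 windows end just before the first base of the gene, and the Fabp7 window lies inside the longest annotated span of the gene, which begins further upstream:
Aldoc, chr10:63715294-63715543: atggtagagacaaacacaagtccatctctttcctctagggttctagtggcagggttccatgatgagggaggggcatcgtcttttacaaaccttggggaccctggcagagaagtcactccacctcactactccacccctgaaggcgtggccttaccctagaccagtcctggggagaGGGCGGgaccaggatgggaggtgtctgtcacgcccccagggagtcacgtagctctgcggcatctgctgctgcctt
Fabp7, chr20:37669356-37669605: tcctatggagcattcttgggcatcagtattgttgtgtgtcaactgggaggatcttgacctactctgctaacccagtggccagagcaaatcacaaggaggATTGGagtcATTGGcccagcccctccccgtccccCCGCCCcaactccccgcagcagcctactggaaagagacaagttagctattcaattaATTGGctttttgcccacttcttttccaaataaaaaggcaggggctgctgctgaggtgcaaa
Ntsr2, chr6:45152845-45153094: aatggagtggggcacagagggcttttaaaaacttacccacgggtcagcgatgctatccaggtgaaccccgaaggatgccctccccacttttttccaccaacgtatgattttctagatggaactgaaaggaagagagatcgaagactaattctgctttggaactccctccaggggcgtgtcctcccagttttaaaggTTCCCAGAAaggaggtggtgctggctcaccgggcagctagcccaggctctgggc

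The motifs searched on both strands were the TATA box TATAAA, the CCAAT box CCAAT, the GC box GGGCGG, the AP-1 site TGANTCA and the STAT site TTCNNNGAA. The Aldoc window held 1 GC box, which 30.5% of 33469 such windows hold. The Fabp7 window held 1 GC box and 3 CCAAT boxes, and 34% of windows hold a CCAAT box. The Ntsr2 window held 1 STAT match, 54 bases before the start, as do 7.67% of windows. TATAAA (12.9% of windows) and TGANTCA (6.34%) had no match in the 3 windows, and no motif was common to all 3. No matches overlapped. These are matches of letters in a window, and no binding was measured.

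In the L5 ipsilateral ganglion Aldoc was 999.7 in the Naive, 1007 in the Naive+GPN and 991 in the Sham pool, and 458 in the SNL and 536 in the SNL+GPN pool. The 3 unligated pools lay within a few percent of each other and both ligated pools far below. The log2 change was -1.0 ± 0.109 (adjusted p = 0.00227, limma). The 2 other Aldoc probe sets also fell, by 0.61 and 0.74 (adjusted p = 0.0189 and 0.00761).

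Ntsr2 was 55.9, 48.3 and 47.7 in the unligated pools, in the same order, and 22.8 and 21.3 in the SNL and SNL+GPN pools. Both ligated pools were below every unligated ganglion pool of the study. Its log2 change was -1.01 ± 0.149 (adjusted p = 0.00632). Fabp7 was 55.1, 67.3 and 83.1 without ligation and 31.6 and 34.1 with it, with no overlap, and changed by -0.92 ± 0.181 (adjusted p = 0.0164). The Fabp7 call was lost without Naive+GPN, SNL or SNL+GPN and with 1 spread shared over tissues (adjusted p up to 0.0921), while Aldoc and Ntsr2 passed under all 12 alternatives.

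S100b gave 2266, 2199 and 1908 without ligation and 1152 and 1681 with it. The groups did not overlap, but the change of -0.60 ± 0.169 missed the threshold (adjusted p = 0.0515), and it passed under 6 of 12 alternatives. Slc1a3 was also lower in both ligated pools (21.1 and 24.4 against 31.3 to 37.3), at -0.51 ± 0.164 (adjusted p = 0.075). Glul overlapped, with 213, 456 and 442 without and 509 and 434 with ligation (0.42, 95% interval -0.31 to 1.14). Slc1a2 was 24.9 to 27.4 without ligation and 29.9 and 34.1 with it (0.26, adjusted p = 0.315).

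Gja1 gave 57.9, 55.9 and 73.4 in the unligated pools, 167 in the SNL pool and 77.1 in the SNL+GPN pool. The SNL pool was more than double every unligated pool, while the SNL+GPN pool was just above the Sham pool. The log2 change was 0.82 ± 0.291 (adjusted p = 0.102). Left without the SNL+GPN pool it was 1.34 (adjusted p = 0.0147), a fit with 1 ligated pool. Aqp4 did not pass the filter on low signals and was not tested in the ganglia.

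Of 8 member genes tested in this ganglion, 3 fell and 0 rose, beside 8.90% falling and 6.78% rising over all probe sets, and their median log2 change was -0.56. At an unadjusted p under 0.05, 8 of 16 member probe sets differed. Of 11 neuron markers tested 6 fell here and 0 rose, and the summed signal of all 12 was 27641 to 28686 in the unligated and 17166 to 19447 in the ligated pools. Of 11 macrophage and microglia markers tested 10 rose, and the sum of all 12 was 897 to 1493 without and 4238 to 4573 with ligation. Skeletal muscle markers (13 genes) summed to 478 to 4030 and to 2787 to 8693. Of 6 fibroblast markers 4 rose, and their sum was 4778 to 5853 without and 7629 to 11135 with ligation. Endothelial markers (7 genes) summed to 170 to 193 and to 234 to 244, and 1 of 4 tested rose. Schwann cell and myelin markers (7 genes) overlapped, at 10800 to 14025 and 10655 to 13170. The GAPDH 3′ to 5′ ratio was 1.13 to 1.26 in unligated and 1.01 to 1.05 in ligated pools. The part of these values in the changes of the 3 genes was not tested.

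**Figure D3:**
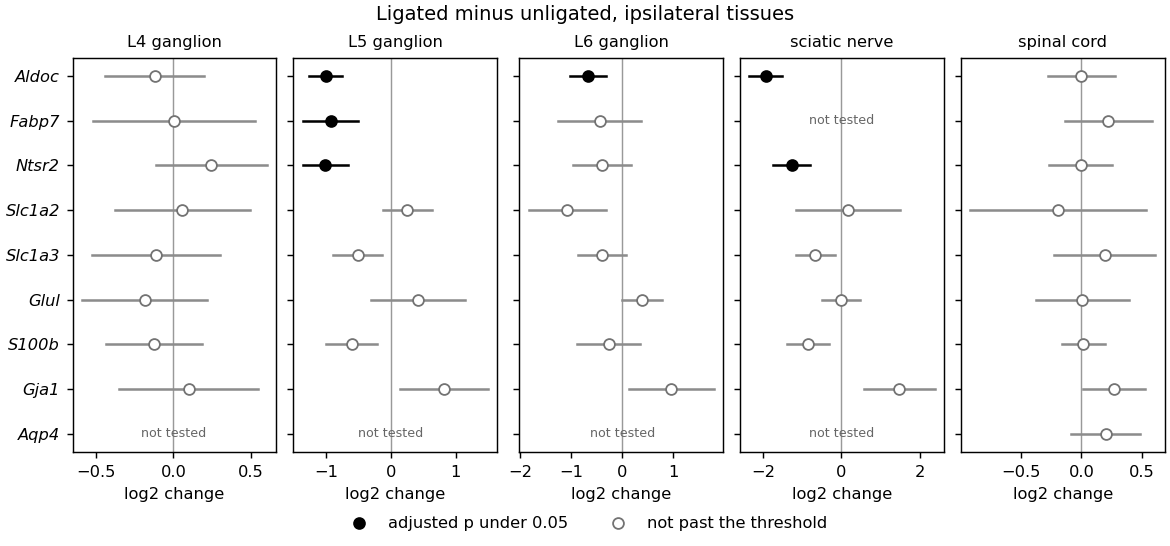
Log2 change with ligation (ligated minus unligated pools) and 95% intervals for the 9 measured genes in 5 ipsilateral tissues; each panel has its own axis. Filled points passed an adjusted p of 0.05: Aldoc, Fabp7 and Ntsr2 in L5, Aldoc in L6, and Aldoc and Ntsr2 in the sciatic nerve.

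The L6 ganglion, the other ganglion with a tied nerve, showed the same fall for Aldoc and no other call. Aldoc was 903, 849.8 and 957 in the Naive, Naive+GPN and Sham pools and 517 and 623 in the SNL and SNL+GPN pools, with no overlap. The change was -0.66 ± 0.152 (adjusted p = 0.0374), and a second Aldoc probe set fell by 0.64 (adjusted p = 0.0419). Fabp7 (27.9, 31.8 and 60.3 without ligation, 35.9 and 19.1 with it) and Ntsr2 (54.2, 53.1 and 34.3 without, 38.8 and 29.6 with) overlapped between groups. Their changes were -0.44 (95% interval -1.25 to 0.37) and -0.39 (-0.96 to 0.17).

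Gja1 in L6 repeated the pattern of L5, with 193 in the SNL pool, 72.8 in the SNL+GPN pool and 49 to 64.5 in the unligated pools. Again 1 pool carried most of the change (0.96 ± 0.358, adjusted p = 0.151). Slc1a2 was lower in both ligated pools, at 4.99 and 13.6 against 21.4 to 27.6 (-1.07, adjusted p = 0.0911). Of 8 genes tested, 1 fell and 0 rose, beside 4.17% falling and 4.34% rising over all probe sets, and 5 of 16 probe sets had an unadjusted p under 0.05. The Aldoc call held under 4 of 12 alternatives and was lost at the deposited scaling, at median scaling, with no filter and without each of the 5 pools in turn. Neuron markers summed to 27208 to 29130 without and 14060 to 17097 with ligation in this ganglion, and macrophage markers to 873 to 1334 and 4632 to 6051. Of 6 fibroblast markers 2 rose (sums 5123 to 5699.8 and 7441 to 8389), and the GAPDH ratio was 1.21 to 1.49 without and 1.08 to 1.10 with ligation. Their part in the Aldoc change was not tested.

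The L4 ganglion, next to the injury with its own nerve untied, showed no member past the threshold. Aldoc was 1157, 1152 and 957 in the unligated and 913 and 1088 in the ligated pools, and these overlapped (-0.12, 95% interval -0.44 to 0.20). Ntsr2 was slightly higher in both ligated pools (48.9 and 51 against 36.8 to 44.5; 0.25, -0.11 to 0.61), opposite to L5. With quantile normalization no member passed, while at the deposited scaling Gja1 passed in L4 (0.97, adjusted p = 0.0335). Limma called 0% of all probe sets here, and 3 of 16 member probe sets had an unadjusted p under 0.05. Whether ligation acted differently in L5 and L4 was tested on the change within each treatment. The difference was -1.26 for Ntsr2 (95% interval -1.76 to -0.76, adjusted p = 0.128), -0.93 for Fabp7 (adjusted p = 0.166) and -0.88 for Aldoc (-1.38 to -0.38, adjusted p = 0.136), so the calls in L5 were not shown to differ from L4. That limma fit called 0% of all probe sets, and 6 of 16 member probe sets had an unadjusted p under 0.05. Between L6 and L4 the member differences ran from -1.13 (Slc1a2, adjusted p = 0.194) to 0.86 (Gja1), again with 0% of all probe sets called by limma and 1 of 16 at an unadjusted p under 0.05.

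In the ipsilateral sciatic nerve, beyond the tie, Aldoc and Ntsr2 fell. Aldoc was 229, 219 and 183 without ligation and 48.2 and 53.7 with it, with a change of -1.92 ± 0.179 (adjusted p = 0.00322). Both ligated pools lay far below the lowest unligated pool. Ntsr2 fell from 53, 49.5 and 46.1 to 19.8 and 14.9 (-1.26 ± 0.2, adjusted p = 0.0167). The 2 ligated pools lay under the 40th percentile of their arrays and the 3 unligated pools above it, so Ntsr2 entered the test through the unligated pools, and its change was -0.73 with a pseudocount of 32. The ligated nerve pools, like the ligated L5 pools, lay below all unligated pools of their tissue for both genes.

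Gja1, by contrast, was higher in both ligated nerve pools. It was 104, 199 and 288 without ligation and 583 and 455 with it, with no overlap, yet the unligated pools differed among themselves nearly 3-fold and the change of 1.47 ± 0.385 missed the threshold (adjusted p = 0.0854). The other 2 Gja1 probe sets gave 1.37 and 0.87 (adjusted p = 0.139 and 0.141). S100b was 3646, 3646 and 2312 without and 1681 and 1788 with ligation (-0.85, adjusted p = 0.0947), and Slc1a3 was 64.5 to 78.1 without and 35.3 and 53 with it (-0.66, adjusted p = 0.144). Glul did not move measurably (-0.02, 95% interval -0.50 to 0.47). Fabp7 and Aqp4 did not pass the filter.

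Of 7 genes tested in nerve, 2 fell and 0 rose, beside 2.59% falling and 2.18% rising over all probe sets, and 9 of 16 member probe sets had an unadjusted p under 0.05. Of the 2, Ntsr2 passed the filter through the unligated pools alone, so this count describes the tested genes only. The count was 0 without SNL, where limma called 0 of all probe sets and Aldoc still changed by -1.86 (adjusted p = 0.0755), 1 without Naive, Naive+GPN or SNL+GPN, and 4 without Sham. The Ntsr2 call was lost at the deposited scaling (-1.09, adjusted p = 0.148) and without each of Naive, Naive+GPN, SNL and SNL+GPN. Skeletal muscle markers summed to 9132 to 20780 in the unligated nerve pools, to 1139 in the SNL and to 9205 in the SNL+GPN pool. Schwann cell and myelin markers summed to 17013 to 19420 without and 12378 to 12443 with ligation. The GAPDH ratio was 1.60 to 7.38 without and 1.61 to 1.92 with ligation, and the part of these values in the changes was not tested.

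**Figure D4:**
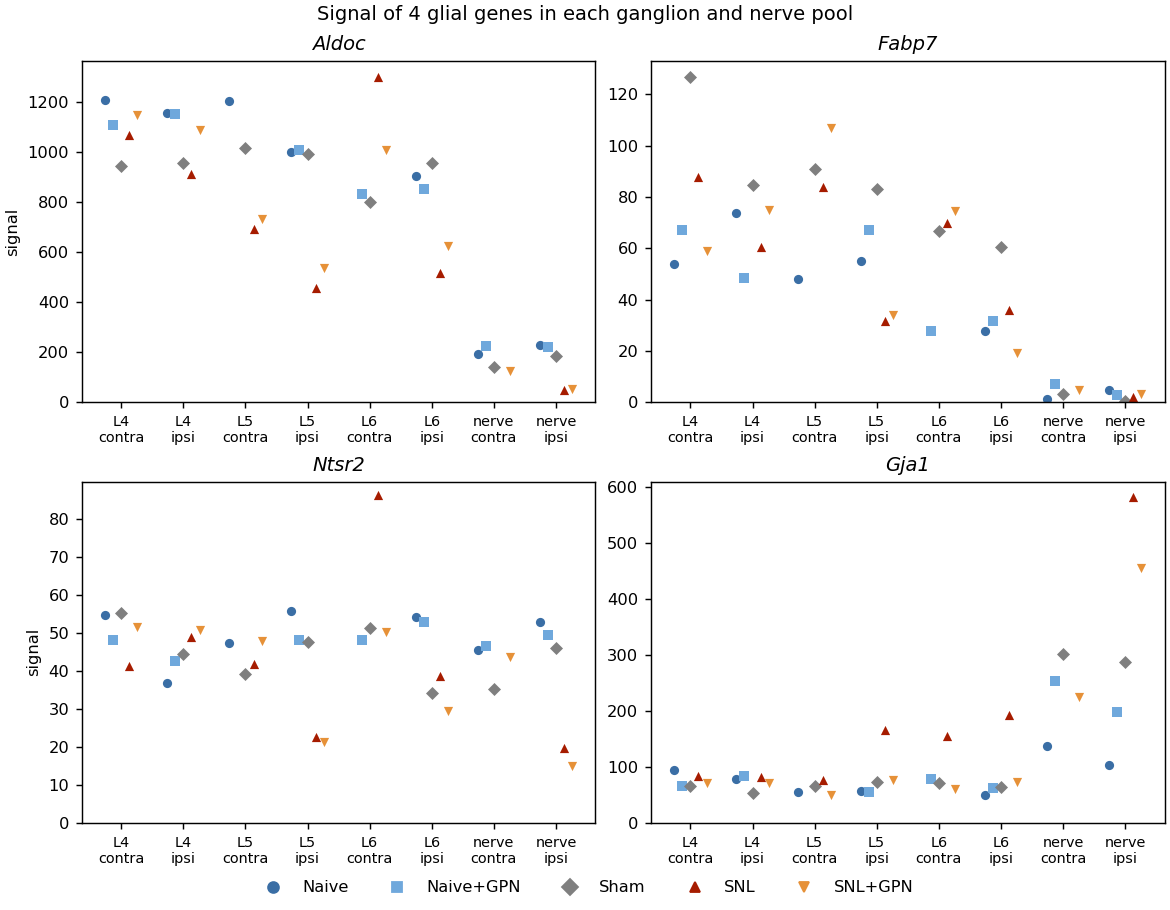
Signal of Aldoc, Fabp7, Ntsr2 and Gja1 in every ganglion and nerve pool, by side, with 1 point per treatment. For Aldoc and Ntsr2 the 2 ligated pools lie below the 3 unligated pools in ipsilateral L5 and in ipsilateral nerve, and Gja1 is high in the SNL pools of ipsilateral L5 (167), ipsilateral L6 (193) and contralateral L6 (155).

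Spinal cord and brain showed no ligation change in any member that passed the test. In the ipsilateral cord, where the injured axons end, Aldoc was 2689 to 3372 without ligation and 3266 and 2827 with it (-0.00, 95% interval -0.28 to 0.27). Gja1 was higher in both ligated pools (788 and 769 against 619 to 692), at 0.27 (0.02 to 0.53), and Aqp4 as well (1551 and 1503 against 1150 to 1448), at 0.20 (-0.09 to 0.49). Neither passed. Limma called 0% of all probe sets, and 1 of 23 member probe sets had an unadjusted p under 0.05. In the contralateral cord the members ran from -0.25 (Aqp4) to 0.37 (Slc1a2), with 0% of all probe sets called by limma and 0 of 22 members' probe sets at an unadjusted p under 0.05. In brain they ran from -0.08 (Fabp7) to 0.40 (Slc1a2), with 0% called by limma and 1 of 22 at an unadjusted p under 0.05.

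Contralateral ganglia gave no member past the threshold either. In L5, Aldoc was 1204 and 1016 in the Naive and Sham pools and 692 and 733 in the SNL and SNL+GPN pools. Both ligated pools were below both unligated ones, a change of -0.63 (95% interval -0.94 to -0.32) that missed the threshold (adjusted p = 0.304). Neither unligated pool had gabapentin, so drug and ligation are partly confounded there. Over all probe sets limma called 0.00612%, and 3 of 16 member probe sets had an unadjusted p under 0.05.

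In contralateral L6, Aldoc was 831 and 802 without ligation and 1300 and 1007 with it (0.49, adjusted p = 0.355), the reverse of the ipsilateral side. This comparison holds the SNL pool in which Aqp4 stood apart. Gja1 was 155 in that pool against 61.4 to 78 in the other 3. Without that pool Gja1 went from 0.37 to -0.25 and Aldoc from 0.49 to 0.30 (log2 changes), and again no member passed. Limma called 0.0731% of all probe sets, 0 of them members, with 5 of 16 member probe sets at an unadjusted p under 0.05. In contralateral L4 the members ran from -0.17 (Ntsr2) to 0.31 (Glul), with 0% of all probe sets called by limma and 0 of 16 at an unadjusted p under 0.05. Without the Sham pool they ran from -0.13 (Ntsr2) to 0.24 (Fabp7).

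Gabapentin moved no member past the threshold. Ligation was a covariate, and each treatment's mean was taken over both L4 ganglia and the ipsilateral L5 and L6 ganglia. Contralateral L5 and L6 were left out, since they were not measured in every treatment. The log2 changes in ganglia ran from -0.29 (Gja1, 95% interval -0.66 to 0.08) to 0.23 (S100b, 0.00 to 0.46). Without the SNL treatment the Gja1 change in ganglia was 0.01. In the cord they ran from -0.25 (Slc1a3, -0.58 to 0.08) to 0.02 (Aqp4, -0.26 to 0.30). Each fit compared 2 treatments with 3. Limma called 0% of all probe sets in ganglia and 0% in cord, and 1 of 17 and 0 of 23 member probe sets had an unadjusted p under 0.05.

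Lists of related genes, some of which hold the same gene, were counted in the same fits, with 1 probe set per gene. Of 37 other astrocyte genes tested, 26 were lower and 2 higher in ganglia than in cord, with a median of -0.82, while 13.7% of all genes were lower and 16.0% higher with a median of 0.02. The largest fitted differences were in the glutamate receptor Grm3 (-5.12), angiotensinogen Agt (-4.27), the sphingosine phosphate receptor S1pr1 (-3.36) and the growth factor receptor Fgfr3 (-3.18). Of 16 glutamate cycle genes, which include Grm3, 9 were lower and 2 higher, among them Gad1, which makes GABA from glutamate (-3.27). A gene could pass the filter on low signals through a tissue where it is high. In the ganglion fit for gabapentin, 33 of these astrocyte and 12 of these glutamate cycle genes passed it. The counts, medians and sizes against cord and brain therefore describe the tested genes only.

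Of 15 connexin and aquaporin genes, 4 were lower and 2 higher in ganglia than in cord, with a median of -0.03, beside the 13.7% lower and 16.0% higher of all genes. The astrocyte connexin Gjb6 was lower (-2.56), and the water channel Aqp1, found in sensory neurons, was higher by 2.75. Of 11 other genes of satellite glia and the Schwann lineage, 4 were higher and 4 lower, led by the neurotrophin receptor Ngfr (3.19), which sensory neurons also carry. Of 16 reactive glia genes, 8 were higher and 2 lower, led by the chemokine Ccl2 (2.55) and the heat shock protein Hspb1 (1.98). Against brain, 23 of 37 other astrocyte genes were lower and 4 higher, and 11 of 16 reactive glia genes were higher and 1 lower, while 21.4% of all genes were higher and 17.8% lower.

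In the ligated L5 ganglion 7 of 31 other astrocyte genes fell and 0 rose, while 9.44% of all genes fell and 6.80% rose. They were led by the matrix proteoglycan Bcan (-1.66), glycogen phosphorylase Pygb (-1.37), metallothionein Mt3 (-1.29) and the receptor Ntrk2 (-0.77). Of 16 reactive glia genes, 10 rose and 0 fell, led by ceruloplasmin Cp (1.53), the cytokine signalling inhibitor Socs3 (1.24), vimentin Vim (0.94) and the protease inhibitor Timp1 (0.74). Of 11 other satellite glia and Schwann lineage genes, Ngfr (-0.96) and Ttyh1 (-0.53) fell. Of 12 glutamate cycle genes, Got1 fell (-0.64), and 0 of 14 connexin and aquaporin genes passed in limma. In L6 the same lists gave 3 falls and 1 rise of 32, and 5 rises and 0 falls of 16 reactive genes, while 4.74% of all genes rose and 4.57% fell.

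In the ligated nerve 3 of 31 other astrocyte genes rose and 2 fell, while 2.01% of all genes rose and 2.85% fell. Sox2, a transcription factor of immature glia, rose by 3.02, and Mt3 fell by 2.75. Ngfr, which Schwann cells make after losing axons, rose by 3.34, and Erbb3 and Foxd3 of the Schwann lineage rose by 1.61 and 0.98. Of 16 reactive glia genes 3 rose and 2 fell, among them Cp (1.80) and the iron-binding lipocalin Lcn2 (-0.96).

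Over the 52 pools, the genes whose log2 signals followed each member most closely differed between members, except that Aldoc and Fabp7 shared Map7. For Ntsr2 they were Ptprd (Pearson r = 0.983), the oligodendrocyte gene Mobp (0.973) and Htr2c (0.970). For Aqp4 they were Itih3, Psd2 and Ermn (each 0.978), and for Slc1a3 they were Ppp1r1b (0.973), Fam107a (0.961) and Tmem178a (0.955). Aldoc was followed by Ncald (0.952), Map7 (0.951) and Tmx4 (0.95), and Fabp7 by Acsbg1 (0.957), Map7 (0.95) and Nap1l5 (0.929). Glul was followed by Enpp2 (0.944), Atp1b2 (0.939) and Sparcl1 (0.938), and Gja1 by S1pr1 (0.937), Chi3l1 (0.932) and Ctss (0.929). S100b (highest r 0.861, C19h1orf198) and Slc1a2 (highest r 0.689, Ephb1) had looser neighbours. The pools share tissues and were run on the same 3 array sets, so these values are a description with no test.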

How the data were processed

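The values are probe set intensity on a linear scale as deposited, made with MAS5 per the submitters' processing notes; no version, target of scaling or detection call is given in the sources used here. Array medians ranged from 13.1 to 62.4 (A), 8.1 to 47.4 (B) and 14.6 to 53.4 (C), and array number limits the precision. Each set was quantile normalized over its 52 arrays, and log2 was taken after adding the set's 20th percentile. Probe sets above their array's 40th percentile in at least 2 samples of a comparison were tested with limma 3.58.1 (lmFit, eBayes with trend) in R 4.3.3, two-sided, with Benjamini-Hochberg adjustment over all of them and a threshold of 0.05. The test was checked on simulated data.

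Tissues were compared over 3 unligated treatment means each, and ligation within each tissue and side (2 against 3 pools, 2 against 2 in contralateral L5 and L6). Each pool is a different treatment, so p-values measure the spread between pools that also differ in drug and surgery. No contralateral nerve comparison was made, since 1 ligated pool was available. The Naive contralateral L6, Naive+GPN contralateral L5 and SNL contralateral nerve pools, and other organs, were not analysed here.

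Symbols came from platform annotation, updated through Entrez identifiers for 18122 of the probe sets with RefSeq tables of GRCr8. Of all probe sets, 18178 had 1 symbol, 391 several and 7633 none. Any probe set with a # sign in its name counts among those with none, since annotation lines were read only up to that sign. Named are all members by the probe set with the highest mean, up to 4 called genes of each list with the largest change, and the 3 genes with the highest r. The members and lists were chosen with earlier results of these data known. No 2 pools had identical values (highest correlation 0.977). Alternatives were scaling, pseudocount, filter, spread, blocks, sample choice and leaving out each treatment. Figures used matplotlib 3.10.9.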

Additional observations from a re-analysis of the deposited data

Results flagged for a closer look

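In all, 5 unligated pools stood apart from the others of their tissue by Dixon's test on log2 values, among 45 groups of 5 or 6 pools tested; chance alone marks about 1 in 20 groups. Glul was 213 in the Naive ipsilateral L5 pool, while the other 4 unligated L5 pools lay between 407 and 456. That pool is an unligated sample of the L5 ligation comparison, in which Glul did not pass. Aldoc was 1204 in the Naive contralateral L5 pool against 991 to 1016 in the others, and this pool is 1 of the 2 unligated samples of the contralateral L5 comparison. Ntsr2 was 34.3 in the Sham ipsilateral L6 pool against 48.2 to 54.2, and 397 in the Naive+GPN contralateral cord pool against 492 to 542. Slc1a2 was 68.9 in the Naive ipsilateral cord pool against 23.6 to 35.6.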

How the results depend on the processing

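All 8 differences called between ganglia and cord, and all 6 between ganglia and brain, kept their direction and their side of the threshold under 11 alternatives each. No member changed direction while past the threshold. The number of members past the threshold stayed within 1.5 times of the reported one against brain (6, 6 to 7), between nerve and ganglia (7, 6 to 7) and in ipsilateral L5 (3, 2 to 4), although not always with the same genes. It moved further in these comparisons. In ipsilateral L6 (1 member) it was 0 at the deposited scaling, 0 at median scaling, 0 with no filter, 2 with 1 spread over compartments, and 0 to 1 leaving out 1 pool (the 1, without SNL+GPN, was Gja1 and not Aldoc). In ipsilateral nerve (2 members) it was 5 with 1 spread and 0 to 4 leaving out 1 pool. At the deposited scaling it was 1 instead of 0 in ipsilateral L4 (Gja1, 0.97), in contralateral L6 (Slc1a2, -1.52) and for the L5 minus L4 difference. Between brain and cord (4 members) leaving out 1 treatment gave 2 to 4. The cause was not tested.

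Over all probe sets, the number past the threshold was 5434 between ganglia and cord (3278 to 7215 over the alternatives), 7337 between ganglia and brain (4859 to 9520), 4109 between brain and cord (2100 to 6135) and 9628 between nerve and ganglia (6994 to 11676). For ligation it was 2622 in L5 (784 without SNL to 3079 at the deposited scaling), 1438 in L6 (85 at the deposited scaling to 2946), 806 in nerve (0 without SNL to 2415), 0 in L4 (up to 2934 at the deposited scaling), 0 for the L5 minus L4 difference (up to 4775 at the deposited scaling), 12 in contralateral L6 (0 to 1218) and 1 in contralateral L5 (0 to 110). The deposited scaling moved the median of all probe sets by -0.13 between ganglia and cord, by -0.24 in L5, by -0.28 in L6, by 0.49 in L4 and by 0.33 in nerve. Called probe sets were split 1680 higher to 2745 lower between ganglia and cord at that scaling (2809 to 2625 as reported), 469 to 2610 in L5 (1134 to 1488), 2026 to 9349 between nerve and ganglia (5046 to 4582), 854 to 2479 between brain and cord (1996 to 2113), 420 to 174 in ligated nerve (368 to 438), 24 to 61 in L6 (733 to 705) and 3440 to 2341 between ganglia and brain (3725 to 3612). With median scaling the split was 3345 to 1997 between ganglia and cord and 668 to 2033 in L5.

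The labels give no replicate numbers, and pairs share a treatment only; treatment as a block was tried for the tissue comparisons and left the number of members called there as reported. Signal over background limits Aqp4 in ganglia and nerve, Fabp7 in nerve, Ntsr2 in ligated nerve and 2 Slc1a2 probe sets, which lie in the lower part of their arrays, and 2 or 3 pools a group limit every ligation test.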
